A study of Rattus norvegicus with 20 samples.

Results

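Globular bushy cells of the rat at P8, a juvenile stage, were compared with mature globular bushy cells at P21, across all genes the arrays could measure. Arrays were taken by their titles: all 5 arrays of P21 animals and replicates 1 to 4 of P8, 9 of the 20 arrays of the series. P8 replicates 5 to 9 were left out because of raised spike-in controls, and 6 further arrays came from P3 animals. All animals were Sprague Dawley rats, all were injected with the fluorescent retrograde tracer cholera toxin B in the medial nucleus of the trapezoid body of the opposite side, and all were killed 24 hours later, so that the tracer and the surgery were common to both ages. From frozen brainstem sections of 12 µm, 200 labelled cells of the ventral cochlear nucleus were cut out per animal with a laser. Their RNA was pooled within the animal and amplified linearly over 2 rounds before it was hybridised. The labels name no sex, litter or treatment group, and each array is 1 animal.

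Globular bushy cells receive auditory nerve input through large endings on the cell body and send a thick, heavily myelinated axon across the midline, where it ends as the calyx of Held, a giant glutamatergic terminal. Both ends of this pathway are built for speed: low-voltage-activated and fast delayed-rectifier potassium channels keep action potentials short, and calcium buffers in the terminal limit the spread of calcium between release events. Rats start to hear between the ages compared here, and at the same time the axons finish their growth, ion channels and receptor subunits switch from early to adult forms, and nets of extracellular matrix assemble around the cell bodies. Which genes change in level over this interval was the question of the comparison.

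The values are log2(intensity + 1), and a difference of 1 is a doubling, except that the added 1 shrinks differences between very dim readings. The size of a difference that starts from readings below log2 4 is uncertain. Of 31099 probe sets on the array 20832 carried 1 gene each, and 15111 of these lay above log2 4 in at least 4 of the 9 arrays, which represents 11545 genes by their brightest probe set. Spike-in controls averaged 8.57 ± 0.35 (SD, n = 4) at P8 and 8.60 ± 0.24 (SD, n = 5) at P21. For GAPDH, the control probe sets at the 3′ end minus those at the 5′ end, a difference that widens when RNA is short, gave 3.27 ± 0.42 (SD, n = 4) at P8 and 3.99 ± 0.66 (SD, n = 5) at P21 (two-sided exact permutation p = 0.111, 0.556 after adjustment over 5 array measures; the smallest p that 9 arrays allow is 0.00794). The mean correlation over probe sets was 0.928 within P21, 0.891 within P8 and 0.858 between the ages. The left-out P8 replicates 5 to 9 correlated at 0.535 with P8 replicates 1 to 4 and at 0.526 with P21. For actin, the 3′ minus 5′ difference lay between 0.72 and 2.64 in these left-out arrays, and averaged 4.29 in P8 replicates 1 to 4. A contrast of P21 with P8 replicates 5 to 9 therefore cannot separate age from the difference between the array sets. Markers of the labelled cell type were present at both ages: the vesicular glutamate transporter Slc17a6 was 11.47 ± 0.18 at P8 (SD, n = 4) and 11.28 ± 0.22 at P21 (SD, n = 5) and the neurofilament subunit Nefm was 11.53 ± 0.11 at P8 (SD, n = 4) and 11.73 ± 0.31 at P21 (SD, n = 5). These 2 genes do not stand for all such markers. Of 23 tested genes that mark fast auditory neurons, 20 had a difference above 0. The mean of these markers was 8.32 to 9.31 on the P8 arrays and 9.56 to 9.88 on the P21 arrays. Equal content of labelled cells at both ages is therefore not shown. Markers of inhibitory neurons, which globular bushy cells should lack, were also detected, with Gad1 at 8.93 ± 0.51 at P8 (SD, n = 4) and 8.42 ± 0.60 at P21 (SD, n = 5). The array measures bulk RNA, so fewer cells of a type and less RNA per cell cannot be told apart in any result below.

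At P21, 607 genes were higher and 591 were lower than at P8, which is 5.26% and 5.12% of the 11545 genes tested and 10.4% together (limma, Benjamini-Hochberg adjusted p under 0.05). Of these, 405 higher and 428 lower genes differed by at least 2-fold, and 87 and 113 by at least 4-fold. The arrays of both ages were fully separated, whatever the test, in 8.30% of genes with P21 higher and 7.74% with P21 lower. The median difference over all genes was 0.048. The equal scaling of the arrays limits a shift common to all genes. It fixes a mean of linear intensities and does not set this median, as array medians ran from 23.8 to 32.5. The precision was limited by the number of arrays: differences had a median SE of 0.25 over all genes. Leaving out 1 array at a time gave 301 to 634 higher and 315 to 567 lower genes, and 547 of the 1198 calls stood in all 9 such fits. The higher genes fell by more than 1.5 times without P8 replicate 2 (378) and without P21 replicates 2 (365), 3 (301), 4 (372) and 5 (383), and the lower genes without P8 replicate 2 (351) and P21 replicate 3 (315). An exact Mann-Whitney test called 0 genes, with a smallest adjusted p of 0.110 and 2567 genes under an unadjusted p of 0.05, and a limma test against a change of 2-fold called 11 higher and 13 lower genes. With the GAPDH difference as a covariate 285 genes were higher and 273 lower, and with the mean of the oligodendrocyte markers (the oligodendrocyte covariate) 247 and 207. Of the 144 called genes named in the text, 83 and 72 kept their calls with these covariates. Beside a gene whose call was lost in such a fit, the array or covariate is named below. A lost call did not by itself mean a smaller difference. With the oligodendrocyte covariate Atp2b1 and Cacnb2 lost their calls, although their differences went from -1.33 to -1.42 and from 1.07 to 1.14. For Igf1 and Erc1, which also lost their calls, the differences went from -2.62 to -1.48 and from -1.60 to -1.17. Called myelin markers are part of the oligodendrocyte covariate, and that fit is not read for them.

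**Figure D1:**
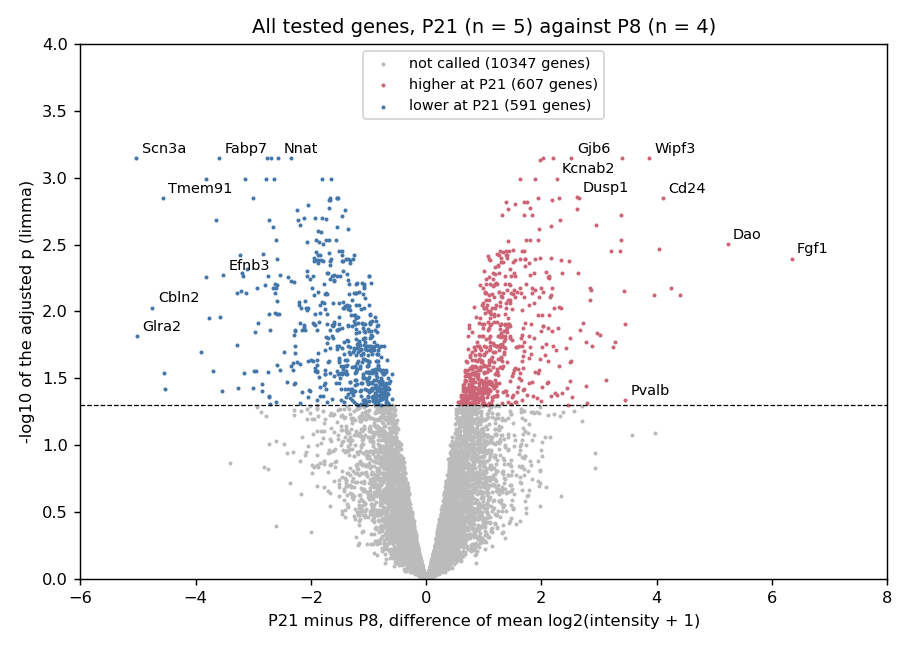
Each point is 1 of the 11545 tested genes, with the difference between the mean log2(intensity + 1) of P21 (n = 5) and P8 (n = 4) on the x axis and -log10 of the adjusted p from limma on the y axis. The dashed line is an adjusted p of 0.05. Calls lie on both sides in nearly equal number (607 higher, 591 lower), with Fgf1 at the right end and Scn3a and Glra2 at the left.

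The 10 largest rises were taken among called genes with separated groups and a mean of at least log2 6 at either age. Fgf1, a secreted fibroblast growth factor, read 6.89, 3.66, 1.68 and 6.14 at P8 and 10.99, 11.05, 11.31, 10.59 and 10.73 at P21, in the order of the replicate numbers. All P21 arrays lay within 1 unit of each other and above every P8 array, and the rise was 6.34 ± 0.90 (SE, adjusted p = 0.00405). Its other probe sets, with lower signal, differed by 1.89 and 2.10. Dao, the D-amino acid oxidase that degrades D-serine, read 1.38, 0.26, 0.26 and 4.11 at P8 and 7.15, 6.56, 6.62, 6.53 and 6.80 at P21. It rose by 5.23 ± 0.69 (SE, adjusted p = 0.00316) from a group of which 2 arrays were close to the floor of the scale. Cox8b, an isoform of a cytochrome c oxidase subunit best known from muscle, read 4.19, 1.32, 0.77 and 4.45 at P8 and 7.47, 7.37, 7.46, 6.37 and 6.75 at P21. It rose by 4.40 ± 0.75 (SE, adjusted p = 0.0075). Enpep, the glutamyl aminopeptidase that cleaves angiotensin II, was 1.98 ± 1.71 at P8 (SD, n = 4) and 6.23 ± 0.62 at P21 (SD, n = 5). It rose by 4.24 ± 0.69 (SE, adjusted p = 0.00666) from a P8 mean below log2 4. Its other probe set, at 4.23 at P8, differed by 0.20.

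Cd24, a small glycoprotein anchored in the outer membrane, read 7.36, 6.58, 5.04 and 7.12 at P8 and 10.85, 10.83, 11.08, 10.01 and 10.40 at P21. This is a rise of 4.11 ± 0.44 (SE, adjusted p = 0.00143). At P3 its mean had been 9.28 ± 0.25 (SD, n = 6), so that P8 held the lowest level of the 3 ages. The inositol transporter Slc5a11 rose by 3.95 ± 0.67 (SE, adjusted p = 0.0075), and Wipf3, which binds the actin regulator WASP, by 3.87 ± 0.31 (SE, adjusted p = 0.000718). The transcription factor Runx1 rose by 3.46 ± 0.66 (SE, adjusted p = 0.0125) and the dynein light chain family gene Dynlt5 by 3.43 ± 0.57 (SE, adjusted p = 0.00708). The remaining member of these 10, a calcium buffer gene, is described with calcium handling. Slc5a11 and Runx1 lost their calls with the oligodendrocyte covariate (up to adjusted p = 0.138 for Runx1).

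The 10 largest falls, taken by the same rule, began with a sodium channel and a glycine receptor subunit. Scn3a, the sodium channel subunit Nav1.3 of the developing brain, read 8.05, 8.55, 6.65 and 7.12 at P8 and 3.36, 2.10, 2.38, 2.17 and 2.81 at P21, with no P21 array above 3.36, and fell by 5.03 ± 0.41 (SE, adjusted p = 0.000718). Glra2, the glycine receptor subunit of immature synapses, read 8.84, 9.68, 10.33 and 8.14 at P8 and 6.37, 3.96, 1.85, 2.35 and 6.62 at P21. It fell by 5.02 ± 1.01 (SE, adjusted p = 0.0154). Its P21 arrays were widely spread, with replicates 1 and 5 far above replicates 3 and 4. Cbln2, a secreted cerebellin that links presynaptic neurexins to postsynaptic receptors, read 7.13, 10.28, 10.16 and 7.00 at P8 and 4.53, 1.85, 4.79, 4.41 and 3.90 at P21. This is a fall of 4.75 ± 0.85 (SE, adjusted p = 0.00941). Tmem91, a membrane protein gene, fell by 4.57 ± 0.49 (SE, adjusted p = 0.00143), and 6330403K07Rikl, for which no function is given here, by 3.82 ± 0.36 (SE, adjusted p = 0.00102). Glra2 and Cbln2 lost their calls with the oligodendrocyte covariate (up to adjusted p = 0.147 for Glra2) and with the GAPDH covariate (up to adjusted p = 0.0883 for Glra2).

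Crabp1, which binds retinoic acid in the cytoplasm, read 6.23, 9.53, 9.19 and 7.37 at P8 and 4.29, 4.61, 4.16, 4.09 and 4.17 at P21, and its P21 arrays lay close together far below P8. It fell by 3.82 ± 0.60 (SE, adjusted p = 0.00554). The tetraspanin gene Tspan4 fell by 3.77 ± 0.70 (SE, adjusted p = 0.0112). The ubiquitin ligase gene Marchf1 fell by 4.55 ± 1.08 (SE, adjusted p = 0.0288), the zinc finger gene Plagl1 by 3.90 ± 0.84 (SE, adjusted p = 0.02) and Tpbg, a leucine-rich membrane glycoprotein, by 3.70 ± 0.87 (SE, adjusted p = 0.0279). These 3 calls were lost in some of the fits on 8 arrays: Marchf1 without P8 replicates 2 and 3 and P21 replicates 2 and 3 (up to adjusted p = 0.0716 without P8 replicate 2), Plagl1 without P8 replicate 2 (adjusted p = 0.0574) and Tpbg without P8 replicates 2 and 3 and P21 replicates 3, 4 and 5 (up to adjusted p = 0.0741 without P8 replicate 2). With P8 replicates 5 to 9 as the juvenile group, the sign turned for Tpbg (2.57) and for Glra2 (0.10). Tspan4, Plagl1 and Tpbg lost their calls with the oligodendrocyte covariate (up to adjusted p = 0.132 for Plagl1), and Tspan4, Marchf1, Plagl1 and Tpbg with the GAPDH covariate (up to adjusted p = 0.109 for Plagl1).

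**Figure D2:**
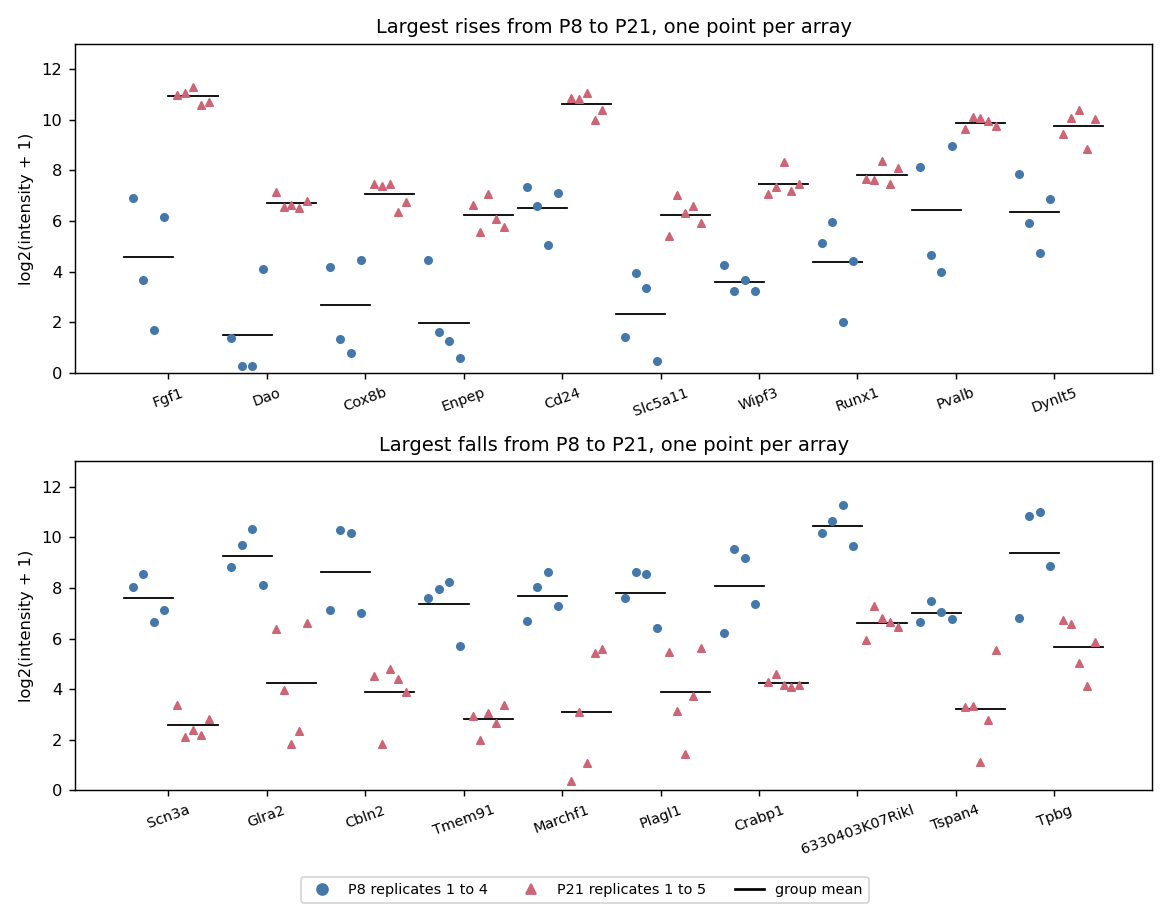
Levels of the 10 genes with the largest rises (top) and the 10 with the largest falls (bottom) among called genes with separated age groups and a mean of log2 6 or more at either age, as log2(intensity + 1) for every array. Circles are the 4 P8 arrays and triangles the 5 P21 arrays in order of replicate number, and lines are group means. For Fgf1, Dao, Cox8b and Pvalb, P8 replicates 1 and 4 sit above replicates 2 and 3, and for Cbln2, Crabp1 and Glra2 below them.

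Within P8 the replicates differed in how far they stood from P21. For 266 of the 607 higher genes and 267 of the 591 lower genes, the pair of P8 arrays nearest to P21 was replicates 1 and 4 (43.8% and 45.2%), whereas each of the other 5 pairs made up 7.4 to 15.7%. Of the 4 P8 arrays, replicate 3 had the highest spike-in mean (9.09), the lowest median intensity (23.8) and the largest GAPDH difference (3.86). Replicate 2 had 8.46, 27.8 and 3.05. Markers of fast auditory neurons averaged 8.88 and 9.31 in replicates 1 and 4, and 8.32 and 8.47 in replicates 2 and 3. For myelin and oligodendrocyte genes these averages were 6.90 and 6.76, against 7.55 and 7.05. Replicates 1 and 4 thus lay nearer to P21 in the neuron markers and farther from it in the myelin markers. Astrocyte markers (7.97 and 8.53, against 7.88 and 8.06) did not separate the pairs. Some other lists did and some did not. The labels give no litter, hour or batch that separates these replicates, and the reason for the split was not tested. Over all genes 1065 had an SD of at least 1 at P8 and 442 at P21.

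**Figure D3:**
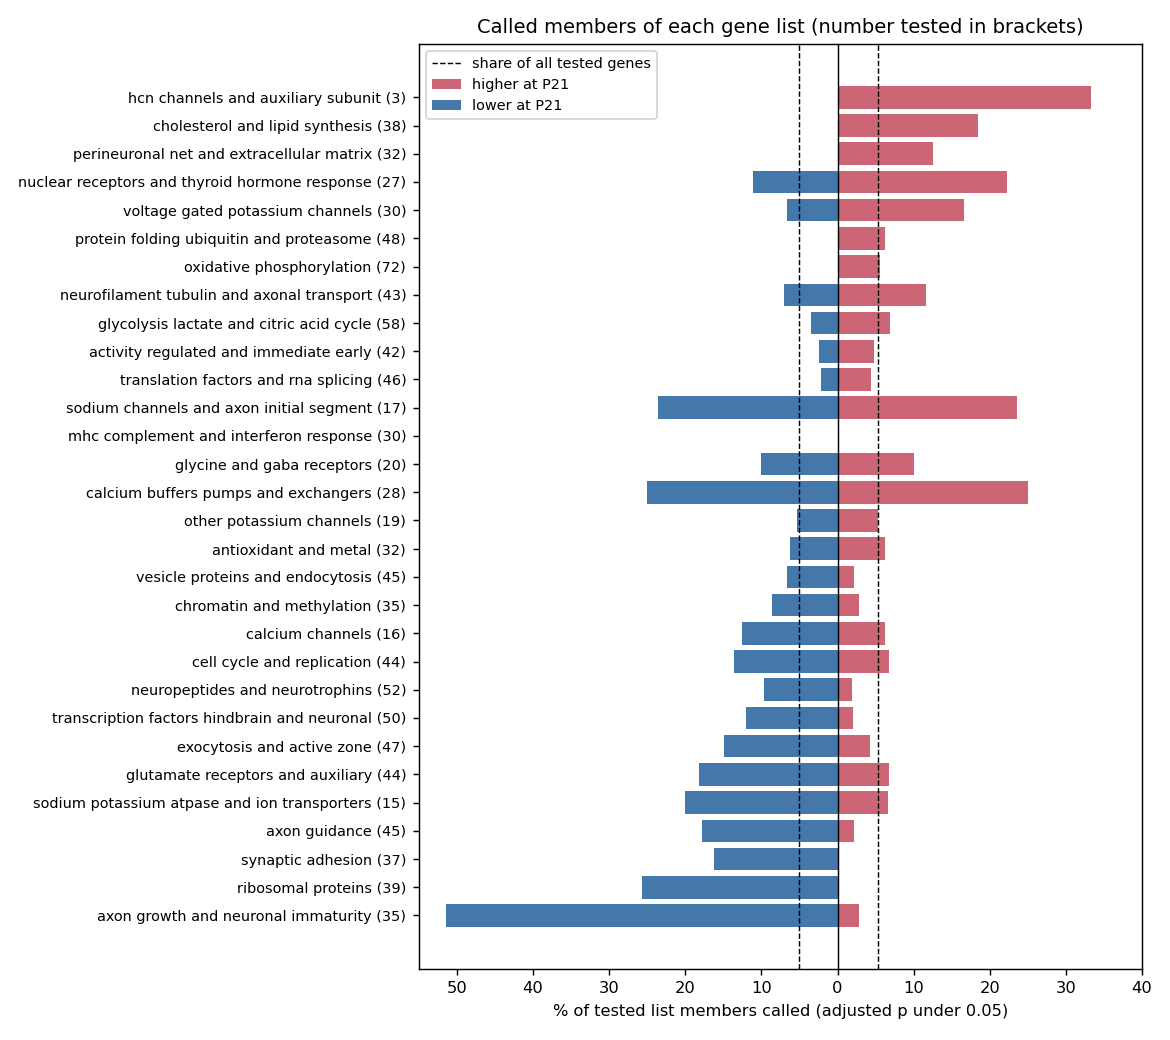
For each of 30 gene lists, bars give the percentage of its tested members called higher at P21 (right) or lower (left). The number tested is in brackets, and dashed lines mark the share of all tested genes, 5.26% and 5.12%. Axon growth genes reach 51.4% lower and calcium-handling genes 25% on each side.

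Among genes that mark fast auditory neurons more rose than fell. Of this list, 9 of 23 tested members were higher and 1 lower (39.1% and 4.35%), with a median difference of 0.98, against 5.26% higher and 5.12% lower and a median of 0.048 over all genes. With 1 array left out there were between 5 and 12 (over 1.5 times from 9 without P21 replicates 1, 3 and 4) higher members. The list holds channels, calcium buffers, matrix and synaptic genes that the following paragraphs take up by role. Spp1, which codes for the secreted phosphoprotein osteopontin, rose by 1.87 ± 0.38 (SE, adjusted p = 0.0159), a gene picked out after its value was seen. Spp1 lost its call with the oligodendrocyte covariate (adjusted p = 0.0587) and with the GAPDH covariate (adjusted p = 0.0715).

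The potassium channel genes Kcna1, Kcnc1, Kcnab2 and Kcns3 were higher at P21. Kcna1, the Kv1.1 subunit of the low-voltage-activated current, read 7.65, 7.92, 7.47 and 9.04 at P8 and 10.16, 10.37, 10.34, 9.86 and 10.21 at P21. It rose by 2.17 ± 0.30 (SE, adjusted p = 0.00397), and had been at 5.85 ± 0.43 at P3 (SD, n = 6). Kcnc1, the Kv3.1 subunit that repolarises fast-spiking neurons, read 9.32, 8.81, 9.13 and 9.84 at P8 and 11.18, 10.93, 11.09, 10.85 and 10.67 at P21. It rose by 1.67 ± 0.22 (SE, adjusted p = 0.00354). Kcnab2, an accessory subunit that binds Kv1 channels, read 7.62, 6.91, 7.01 and 7.73 at P8 and 9.75, 9.51, 9.78, 9.57 and 9.31 at P21. It rose by 2.26 ± 0.22 (SE, adjusted p = 0.00102), although its dimmer probe set moved by 0.17. Kcns3, a silent subunit that modifies Kv2 channels, read 7.62, 6.27, 6.15 and 6.75 at P8 and 9.26, 9.19, 9.66, 9.50 and 9.00 at P21. This is a rise of 2.63 ± 0.30 (SE, adjusted p = 0.00171). In these 4 genes the lowest P21 array was above the highest P8 array.

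Over all voltage-gated potassium channel genes 5 of 30 tested members were higher and 2 lower (16.7% and 6.67%), with a median difference of -0.10. Fits on 8 arrays gave between 5 and 6 higher and between 1 and 4 (over 1.5 times from 2 without P8 replicates 2, 3 and 4 and P21 replicates 1 and 3) lower. The accessory subunit Kcnab1 also rose, by 1.58 (adjusted p = 0.00719), against 0.14 on its dimmer probe set. Kcna2, the Kv1.2 partner of Kcna1, was 9.94 ± 0.60 at P8 (SD, n = 4) and 10.86 ± 0.32 at P21 (SD, n = 5), a difference of 0.91 ± 0.29 (SE, adjusted p = 0.0797) that missed the threshold, with a 95% confidence interval of 0.26 to 1.56. Kcnq5, an M-current subunit, went the other way and fell by 1.83 ± 0.26 (SE, adjusted p = 0.0038), against -0.36 on its second probe set. Kcna4, the Kv1.4 subunit of inactivating A-type currents, fell by 3.17 ± 0.75 (SE, adjusted p = 0.0287), a call lost without any 1 array other than P8 replicate 4 and P21 replicate 2 (up to adjusted p = 0.0671 without P21 replicate 3). Of the calcium-activated, leak and inward rectifier potassium channels 1 of 19 tested members was higher and 1 lower (5.26% and 5.26%), with a median difference of -0.087. In the list of HCN channel genes with their auxiliary subunit 1 of 3 tested members was higher and 0 lower (33.3% and 0%), with a median difference of 0.21 and 0 lower at an unadjusted limma p under 0.05, and the higher member was the auxiliary subunit. Pex5l, the auxiliary protein TRIP8b that sets HCN channel trafficking, read 3.14, 1.14, 1.32 and 1.38 at P8 and 4.51, 5.33, 5.31, 5.24 and 5.26 at P21. It rose by 3.39 ± 0.40 (SE, adjusted p = 0.0019), while Hcn2 was 6.43 ± 0.35 at P8 (SD, n = 4) and 6.64 ± 0.21 at P21 (SD, n = 5), a difference of 0.21 (adjusted p = 0.564). Higher other potassium channel genes numbered 0 to 1 with 1 array left out (over 1.5 times from 1 without P8 replicate 2 and P21 replicate 3) and lower other potassium channel genes 0 to 1 (over 1.5 times from 1 without any 1 array other than P8 replicates 2 and 4 and P21 replicate 5). Kcna4 lost its call with the oligodendrocyte covariate (adjusted p = 0.117).

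Sodium channel subunits of early development were lower at P21, and an accessory subunit of fast-firing neurons was higher. Scn2a, the Nav1.2 subunit, read 7.88, 7.78, 6.59 and 6.98 at P8 and 5.53, 4.19, 4.78, 5.37 and 5.84 at P21. It fell by 2.17 ± 0.39 (SE, adjusted p = 0.00936), in the same direction as Scn3a. The beta subunit Scn3b read 9.42, 9.91, 10.15 and 8.76 at P8 and 6.63, 6.15, 5.95, 6.84 and 6.51 at P21. It fell by 3.14 ± 0.30 (SE, adjusted p = 0.00102). The beta subunit Scn4b, which supports the resurgent sodium current, read 9.93, 9.14, 9.44 and 10.20 at P8 and 11.68, 11.61, 11.61, 11.47 and 10.91 at P21. It rose by 1.78 ± 0.26 (SE, adjusted p = 0.00431). Each P21 array was above each P8 array, and P3 had been at 6.20 ± 0.46 (SD, n = 6). Scn1a, the Nav1.1 subunit, had separated groups and a difference of 0.61 ± 0.18 (SE, adjusted p = 0.0682) that missed the threshold. Scn8a, the adult subunit of nodes and initial segments, was dim and differed by 0.45 (adjusted p = 0.674), with an interval of -0.86 to 1.76. Scn2a lost its call with the oligodendrocyte covariate (adjusted p = 0.0995) and with the GAPDH covariate (adjusted p = 0.0505).

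Among all sodium channel and initial segment genes 4 of 17 tested members were higher and 4 lower (23.5% and 23.5%), with a median difference of -0.12. Dropping any 1 array left between 2 and 4 (over 1.5 times from 4 without P8 replicate 1 and P21 replicate 3) higher and between 3 and 4 lower. The other called members were chosen for mention after their values were seen. Sptbn4, the spectrin of the initial segment and nodes, rose by 1.19 (adjusted p = 0.00947), and Fgf13, an intracellular factor that binds sodium channels, fell by 1.23 (adjusted p = 0.0261). The call of Fgf13 was lost without P8 replicates 1, 2 and 3 and P21 replicates 3 and 5 (up to adjusted p = 0.0697 without P8 replicate 2), and against P8 replicates 5 to 9 its sign turned (0.041). Fgf13 lost its call with the oligodendrocyte covariate (adjusted p = 0.0611).

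**Figure D4:**
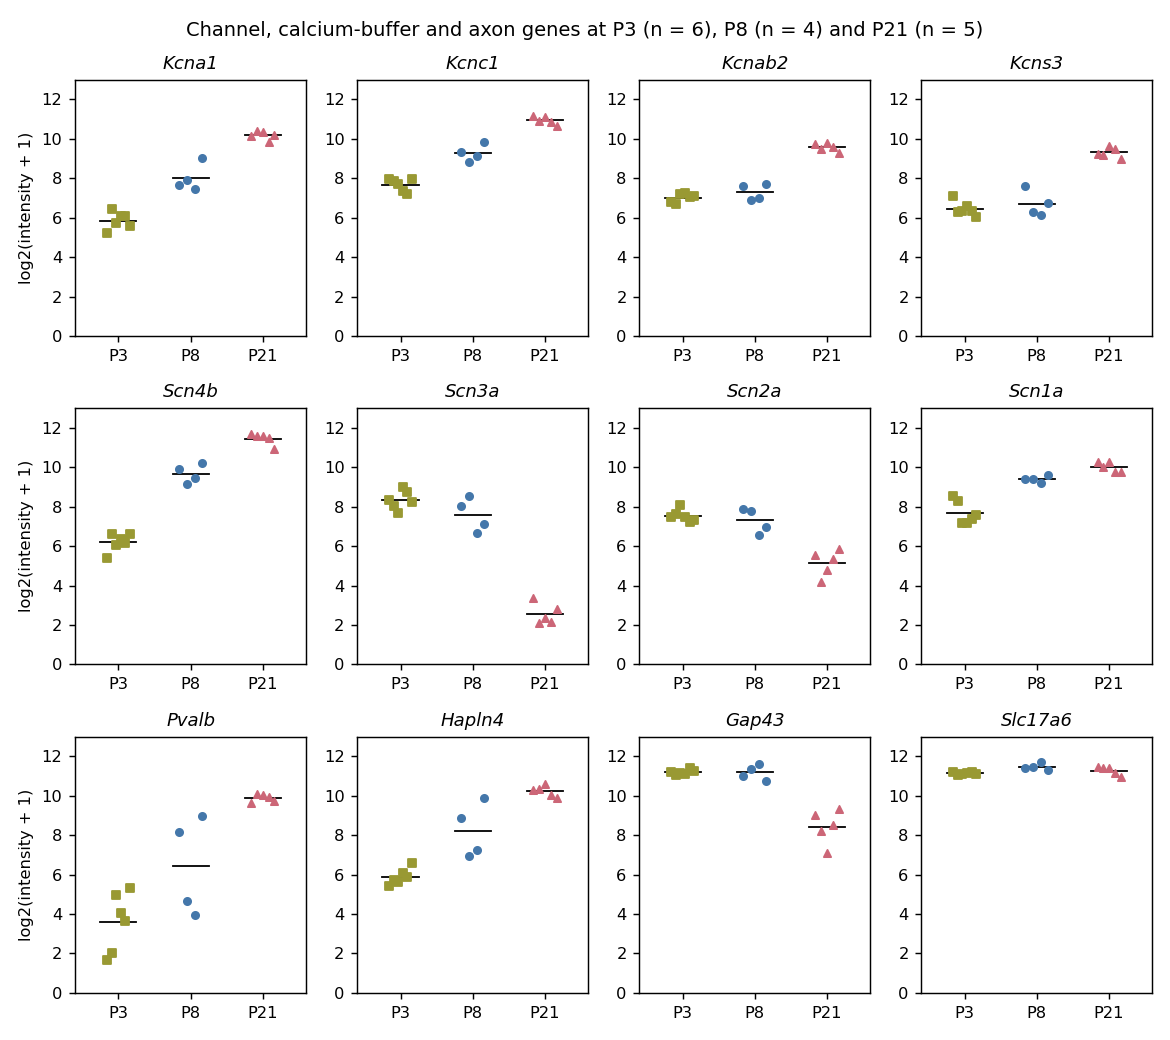
Levels of 12 genes as log2(intensity + 1), 1 point per array, for P3 (squares, n = 6), P8 replicates 1 to 4 (circles) and P21 (triangles, n = 5), with group means as lines. From P8 to P21, Kcna1, Kcnc1, Kcnab2, Kcns3 and Scn4b move up with no overlap, Scn3a, Scn2a and Gap43 move down, the 4 P8 arrays of Pvalb and Hapln4 spread widely, and the ages overlap for Slc17a6.

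Genes of calcium handling moved in both directions. Of this list 7 of 28 tested members were higher and 7 lower (25% and 25%), with a median difference of -0.13. The 9 fits on 8 arrays held between 2 and 6 (over 1.5 times from 7 without P8 replicate 2 and P21 replicates 1, 2, 3 and 4) higher and between 6 and 7 lower. Pvalb read 8.14, 4.67, 3.97 and 8.98 at P8 and 9.63, 10.10, 10.06, 9.94 and 9.74 at P21. The P21 arrays spanned 9.63 to 10.10, whereas P8 replicates 1 and 4 were nearest to them and replicates 2 and 3 far below, so that the rise of 3.45 ± 0.93 (SE, adjusted p = 0.046) sits just inside the threshold. Calb2, the buffer calretinin, read 8.84, 9.48, 10.25 and 10.52 at P8 and 11.54, 11.34, 11.30, 10.83 and 10.64 at P21. It rose by 1.36 ± 0.35 (SE, adjusted p = 0.0394). Both calls depend on single arrays and were lost for Pvalb without any 1 array other than P8 replicates 1 and 4 (up to adjusted p = 0.114 without P8 replicate 2) and Calb2 without any 1 array other than P8 replicates 3 and 4 and P21 replicate 5 (up to adjusted p = 0.0973 without P8 replicate 2). Calb1, the buffer calbindin, was 8.33 ± 1.20 at P8 (SD, n = 4) and 6.44 ± 1.36 at P21 (SD, n = 5) and its difference of -1.89 (adjusted p = 0.142) missed the threshold. Necab2, a neuronal calcium-binding protein gene, fell by 1.12 ± 0.20 (SE, adjusted p = 0.00968). Pvalb, Calb2 and Necab2 lost their calls with the oligodendrocyte covariate (up to adjusted p = 0.105 for Calb2), and Pvalb and Calb2 with the GAPDH covariate (up to adjusted p = 0.13 for Calb2).

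Of the neuronal calcium sensors in the list 4 fell and 1, Ncs1, rose by 1.05 (adjusted p = 0.0499), against 0.45 and 0.087 on its other probe sets. Hpca, or hippocalcin, read 7.70, 8.06, 8.41 and 7.81 at P8 and 6.60, 6.13, 6.33, 6.44 and 6.69 at P21. It fell by 1.56 ± 0.20 (SE, adjusted p = 0.00292). Ncald, or neurocalcin delta, fell by 1.81 ± 0.22 (SE, adjusted p = 0.002) on its brightest probe set, while its other probe set differed by 0.041. The related genes Hpcal1 and Hpcal4 fell by 1.94 (adjusted p = 0.0125) and 2.19 (adjusted p = 0.0122), named, like Ncs1, after their values were seen. The potassium-dependent sodium-calcium exchanger Slc24a3 read 9.10, 10.46, 10.56 and 10.17 at P8 and 7.40, 7.39, 6.64, 7.21 and 6.73 at P21. It fell by 3.00 ± 0.32 (SE, adjusted p = 0.00143), with a second probe set at 0.20. Of the plasma membrane calcium pumps Atp2b3 rose by 1.19 (adjusted p = 0.0177), Atp2b1 fell by 1.33 (adjusted p = 0.0339) and Atp2b2 differed by -0.50 (adjusted p = 0.0927). Other probe sets, none of them called, moved by 0.77 for Atp2b3 and by -0.42 and -0.42 for Atp2b1. Fits on 8 arrays lost Ncs1 without any 1 array other than P8 replicate 4 (up to adjusted p = 0.111 without P21 replicate 3) and Atp2b1 without any 1 array other than P8 replicates 3 and 4 and P21 replicate 1 (up to adjusted p = 0.0769 without P21 replicate 2). When P8 replicates 5 to 9 took the place of 1 to 4, the sign turned for Ncald (0.66), Hpcal1 (0.21), Hpcal4 (1.30), Slc24a3 (0.23) and Atp2b1 (0.31). Ncs1, Hpcal1 and Atp2b1 lost their calls with the oligodendrocyte covariate (up to adjusted p = 0.25 for Ncs1), and Ncs1, Hpcal1, Hpcal4 and Atp2b1 with the GAPDH covariate (up to adjusted p = 0.162 for Atp2b1).

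Of the sodium-potassium ATPase and ion transporter genes 1 of 15 tested members was higher and 3 lower (6.67% and 20%), with a median difference of -0.10. Fxyd7, a brain regulator of the sodium-potassium ATPase, read 7.99, 8.75, 8.48 and 7.65 at P8 and 6.11, 5.75, 4.94, 6.96 and 6.73 at P21. It fell by 2.12 ± 0.41 (SE, adjusted p = 0.0131). Higher ion transporter genes numbered 0 to 1 with 1 array left out (over 1.5 times from 1 without any 1 array other than P8 replicates 2, 3 and 4) and lower ion transporter genes 1 to 4 (over 1.5 times from 3 without P8 replicate 2). Fxyd7 lost its call with the oligodendrocyte covariate (adjusted p = 0.0517) and with the GAPDH covariate (adjusted p = 0.0612).

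Few voltage-gated calcium channel genes were called in either direction. Of these 1 of 16 tested members was higher and 2 lower (6.25% and 12.5%), with a median difference of 0.085, and Cacna1a, the P/Q-type subunit of the mature calyx, was 5.77 ± 0.56 at P8 (SD, n = 4) and 5.87 ± 0.57 at P21 (SD, n = 5) with a difference of 0.096 (adjusted p = 0.892) and an interval of -0.68 to 0.87. Cacna1b, the N-type subunit used at young terminals, read 8.12, 7.91, 8.30 and 7.78 at P8 and 7.28, 7.58, 6.82, 7.34 and 7.28 at P21. It fell by 0.77 ± 0.20 (SE, adjusted p = 0.0399). The T-type subunit Cacna1h fell by 1.00 ± 0.21 (SE, adjusted p = 0.0183), against 0.25 on its other probe set, and the auxiliary subunit Cacnb2 rose by 1.07 ± 0.28 (SE, adjusted p = 0.0413). Each of the 3 calls was lost in some fits on 8 arrays: Cacna1b without any 1 array other than P8 replicate 4 and P21 replicate 2 (up to adjusted p = 0.0862 without P8 replicate 3), Cacna1h without P21 replicate 3 (adjusted p = 0.051) and Cacnb2 without any 1 array other than P8 replicate 4 and P21 replicate 1 (up to adjusted p = 0.099 without P8 replicate 2). In the contrast with P8 replicates 5 to 9 the sign of Cacnb2 turned (-0.077). Higher calcium channel genes numbered 0 to 1 with 1 array left out (over 1.5 times from 1 without any 1 array other than P8 replicate 4 and P21 replicate 1) and lower calcium channel genes 0 to 3 (over 1.5 times from 2 without any 1 array other than P8 replicate 4 and P21 replicate 2). Cacna1b, Cacna1h and Cacnb2 lost their calls with the oligodendrocyte covariate (up to adjusted p = 0.213 for Cacna1h) and with the GAPDH covariate (up to adjusted p = 0.103 for Cacnb2).

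Several core genes of transmitter release showed no called change. Snap25, a SNARE protein of the plasma membrane, was 11.48 ± 0.16 at P8 (SD, n = 4) and 11.55 ± 0.33 at P21 (SD, n = 5), a difference of 0.071 (adjusted p = 0.858) with a 95% confidence interval of -0.38 to 0.52. Vamp1, the vesicle SNARE of fast hindbrain synapses, differed by 0.15 (adjusted p = 0.722) with an interval of -0.35 to 0.64. The calcium sensors Syt1 and Syt2 differed by 0.15 (adjusted p = 0.692) and 0.17 (adjusted p = 0.826), and Slc17a6 by -0.19 (adjusted p = 0.546) with an interval of -0.59 to 0.21. Slc17a7, the other vesicular glutamate transporter, read 7.38, 5.43, 5.67 and 8.46 at P8 and 8.49, 8.65, 8.93, 8.48 and 8.74 at P21. Its groups did not overlap, yet the difference of 1.93 ± 0.55 (SE, adjusted p = 0.0567) missed the threshold.

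Called members of the exocytosis list mostly fell, as 2 of 47 tested members were higher and 7 lower (4.26% and 14.9%), with a median difference of 0.063. Leaving out 1 array gave between 5 and 6 lower. Syt5, a synaptotagmin of dense-core and other vesicles, read 6.50, 6.71, 6.52 and 6.04 at P8 and 3.54, 4.85, 4.11, 4.12 and 4.47 at P21. It fell by 2.22 ± 0.27 (SE, adjusted p = 0.00208). The active zone scaffold Erc1 fell by 1.60 ± 0.25 (SE, adjusted p = 0.00539), against -0.31 on its other probe set, and Vamp2, the vesicle SNARE of most forebrain synapses, by 1.20 ± 0.19 (SE, adjusted p = 0.00613), against -0.12. Syt17, which does not bind calcium as the classical synaptotagmins do, fell by 2.66 (adjusted p = 0.00666), the plasma membrane SNARE Stx1a by 2.19 (adjusted p = 0.0482) and the vesicle GTPase Rab3b by 2.31 (adjusted p = 0.0242), all named after their values were seen. Syt3, a high-affinity synaptotagmin, rose by 0.85 ± 0.19 (SE, adjusted p = 0.0211), and Napa, the adaptor that recycles SNARE complexes, by 0.74 ± 0.18 (SE, adjusted p = 0.0306). Removing 1 array ended the calls of Stx1a without any 1 array other than P21 replicate 5 (up to adjusted p = 0.116 without P8 replicate 2), Rab3b without P8 replicate 2 and P21 replicates 2, 3 and 5 (up to adjusted p = 0.0641 without P8 replicate 2), Syt3 without P8 replicate 2 and P21 replicates 2 and 3 (up to adjusted p = 0.0554 without P8 replicate 2) and Napa without any 1 array other than P8 replicate 4 and P21 replicate 5 (up to adjusted p = 0.0778 without P8 replicate 2). Against P8 replicates 5 to 9 the sign of Vamp2 turned (0.91). Higher exocytosis genes numbered 0 to 2 with 1 array left out (over 1.5 times from 2 without any 1 array other than P8 replicate 4 and P21 replicate 5). Erc1, Syt17, Stx1a, Rab3b, Syt3 and Napa lost their calls with the oligodendrocyte covariate (up to adjusted p = 0.106 for Stx1a), and Stx1a, Rab3b, Syt3 and Napa with the GAPDH covariate (up to adjusted p = 0.166 for Stx1a).

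Among vesicle and endocytosis genes 1 of 45 tested members was higher and 3 lower (2.22% and 6.67%), with a median difference of 0.011, close to the share of all genes in each direction. Synpr, the vesicle membrane protein synaptoporin, read 8.70, 10.28, 10.06 and 8.21 at P8 and 6.32, 6.49, 5.24, 6.32 and 6.66 at P21. It fell by 3.11 ± 0.46 (SE, adjusted p = 0.00482). The other probe set moved by -2.47. Sh3gl3, an endophilin of clathrin-coated uptake, fell by 2.27 ± 0.45 (SE, adjusted p = 0.0138). The vesicle protein Syngr3 fell by 1.37 ± 0.21 (SE, adjusted p = 0.00521), with the opposite sign against P8 replicates 5 to 9 (1.81). Syn2, or synapsin 2, rose by 0.77 ± 0.21 (SE, adjusted p = 0.0481), a call lost whichever array was left out (up to adjusted p = 0.0986 without P8 replicate 4). Its other probe sets, not called, moved by 0.59 and 0.31. Higher vesicle genes numbered 0 to 1 with 1 array left out (over 1.5 times from 1 without any 1 array other than P8 replicates 1 and 4 and P21 replicate 4). Syn2 lost its call with the oligodendrocyte covariate (adjusted p = 0.356) and with the GAPDH covariate (adjusted p = 0.108).

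Of the glutamate receptor genes and their auxiliary proteins more fell than rose. In this list 3 of 44 tested members were higher and 8 lower (6.82% and 18.2%), with a median difference of -0.17. With 1 array left out there were between 4 and 9 (over 1.5 times from 8 without P8 replicates 2 and 3 and P21 replicates 2, 3 and 4) lower and between 1 and 4 (over 1.5 times from 3 without P21 replicates 1 and 4) higher. Cnih2, the cornichon subunit that slows AMPA receptor gating, read 7.44, 8.02, 7.64 and 7.31 at P8 and 4.43, 4.94, 4.68, 5.60 and 6.35 at P21. It fell by 2.40 ± 0.37 (SE, adjusted p = 0.00554). Nptxr, the neuronal pentraxin receptor, read 9.01, 9.50, 9.32 and 8.30 at P8 and 7.29, 6.88, 6.83, 6.83 and 6.78 at P21. It fell by 2.11 ± 0.25 (SE, adjusted p = 0.002), while its dimmer probe set moved by 0.40. Its secreted partner Nptx1, which clusters AMPA receptors, read 8.27, 8.05, 9.26 and 8.58 at P8 and 10.52, 10.16, 10.79, 9.93 and 10.28 at P21. It rose by 1.79 ± 0.27 (SE, adjusted p = 0.00539). Thus both pentraxin genes had separated groups, and they moved in opposite directions.

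Of the AMPA receptor subunits, Gria4, which forms fast-gating receptors at auditory synapses, read 7.27, 6.48, 7.40 and 8.09 at P8 and 8.82, 8.27, 8.63, 8.85 and 8.58 at P21. It rose by 1.32 ± 0.30 (SE, adjusted p = 0.0237) on its brightest probe set, against -0.10 and -0.065 on the others. Gria1 was dim and fell by 1.73 ± 0.44 (SE, adjusted p = 0.038), and Gria2 was 8.88 ± 0.43 at P8 (SD, n = 4) and 8.28 ± 0.35 at P21 (SD, n = 5) with a difference of -0.59 (adjusted p = 0.18). The other Gria2 probe set, of similar signal, moved by -0.97 and was called lower (limma, adjusted p = 0.045), with overlapping groups. The NMDA receptor subunits Grin2a and Grin2b differed by 0.60 (adjusted p = 0.423) and 0.78 (adjusted p = 0.0884). Their other probe sets moved by 0.24 and -0.43. Grin2c rose by 1.25 ± 0.30 (SE, adjusted p = 0.0301). Nrgn, which holds calmodulin in dendrites, fell by 2.54 ± 0.59 (SE, adjusted p = 0.0274). With 8 arrays the calls ended for Gria4 without P8 replicate 1 and P21 replicates 1, 3 and 4 (up to adjusted p = 0.0571 without P21 replicate 3), Gria1 without any 1 array other than P8 replicate 4 and P21 replicate 3 (up to adjusted p = 0.0868 without P8 replicate 3), Grin2c without any 1 array other than P8 replicate 2 and P21 replicate 3 (up to adjusted p = 0.074 without P8 replicate 1) and Nrgn without P8 replicates 1, 2 and 3 and P21 replicates 2 and 3 (up to adjusted p = 0.0738 without P8 replicate 2). With P8 replicates 5 to 9 as the juvenile group, the sign of Gria4 turned (-0.48). Gria1, Grin2c and Nrgn lost their calls with the oligodendrocyte covariate (up to adjusted p = 0.252 for Grin2c), and Gria4, Gria1 and Nrgn with the GAPDH covariate (up to adjusted p = 0.134 for Nrgn).

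Of the glycine and GABA-A receptor genes 2 of 20 tested members were higher and 2 lower (10% and 10%), with a median difference of 0.10. Next to the fall of Glra2, the adult subunit Glra1 was 5.25 ± 1.55 at P8 (SD, n = 4) and 6.51 ± 0.70 at P21 (SD, n = 5), and its difference of 1.26 ± 0.66 (SE, adjusted p = 0.264) missed the threshold with an interval of -0.20 to 2.72. Gabrd, the delta subunit of extrasynaptic receptors, rose by 1.78 ± 0.39 (SE, adjusted p = 0.0224), against 0.18 on its other probe set. Gabra6, a subunit known from cerebellar granule cells and from granule cells of the cochlear nucleus, read 4.65, 5.16, 4.46 and 4.82 at P8 and 8.47, 7.23, 5.44, 8.13 and 10.21 at P21. It rose by 3.13 ± 0.76 (SE, adjusted p = 0.0324), with P21 replicate 5 highest and P21 replicate 3 near the P8 arrays. Its other probe set moved by 0.72. The mean of the granule cell markers moved with it, from 6.24 to 6.45 on the P8 arrays to 6.60 to 8.32 on the P21 arrays, and 2 of 8 members, Gabra6 and Grin2c, were called. That count was between 0 and 2 (over 1.5 times from 2 without P8 replicates 1, 2, 3 and 4 and P21 replicates 1, 2, 4 and 5) with 1 array left out. The median difference of that list was 0.94, and -0.39 against P8 replicates 5 to 9. Their part in the result was not tested. Calls were lost for Gabrd without P21 replicates 1, 2, 3 and 5 (up to adjusted p = 0.0561 without P21 replicate 3), Gabra6 without any 1 array other than P21 replicates 3 and 5 (up to adjusted p = 0.0711 without P8 replicate 3) and Grin2c without any 1 array other than P8 replicate 2 and P21 replicate 3 (up to adjusted p = 0.074 without P8 replicate 1). The potassium-chloride transporter Slc12a5, which sets the sign of inhibition, was 10.83 ± 0.22 at P8 (SD, n = 4) and 10.92 ± 0.33 at P21 (SD, n = 5) and differed by 0.095 (adjusted p = 0.816) with an interval of -0.38 to 0.57. When P8 replicates 5 to 9 took the place of 1 to 4, the sign of Glra2 turned (0.10). Higher glycine and GABA-A receptor genes numbered 0 to 1 with 1 array left out (over 1.5 times from 2 whichever array was left out) and lower glycine and GABA-A receptor genes 1 to 2 (over 1.5 times from 2 without any 1 array other than P8 replicate 4 and P21 replicate 5). Gabra6 lost its call with the oligodendrocyte covariate (adjusted p = 0.162), and Gabrd with the GAPDH covariate (adjusted p = 0.0604).

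All gene lists were chosen with earlier results of these data known. Among them, genes of axon growth and neuronal immaturity formed the list with the largest share of falls. Of these 1 of 35 tested members was higher and 18 lower (2.86% and 51.4%), with a median difference of -0.86. Fits on 8 arrays gave between 17 and 18 lower. Gap43, the growth cone protein, read 11.00, 11.38, 11.64 and 10.73 at P8 and 9.04, 8.21, 7.08, 8.53 and 9.34 at P21. It fell by 2.75 ± 0.42 (SE, adjusted p = 0.00541). Dpysl5, a collapsin response mediator, read 8.84, 9.44, 9.78 and 8.74 at P8 and 6.41, 6.30, 6.22, 6.72 and 6.56 at P21. It fell by 2.76 ± 0.24 (SE, adjusted p = 0.000718). Marcks, which ties membranes to actin, fell by 1.83 (adjusted p = 0.00254), and its other probe sets moved by -2.12, -3.30 and -2.91. Sox4, a transcription factor of young neurons, fell by 1.40 ± 0.16 (SE, adjusted p = 0.00173), with -0.79, -0.96 and 0.42 on its other probe sets. The tubulin Tubb2b of growing axons fell by 1.52 ± 0.21 (SE, adjusted p = 0.00354). Every P21 array was below every P8 array for these 5 genes on their brightest probe sets. P3 levels of Gap43 were 11.19 ± 0.13 and of Dpysl5 10.23 ± 0.21 (SD, n = 6). Gap43 lost its call with the oligodendrocyte covariate (adjusted p = 0.0587).

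Fabp7, a fatty acid binding protein best known from radial glia and young astrocytes, read 10.65, 10.73, 11.45 and 11.31 at P8 and 6.59, 7.90, 7.69, 7.69 and 7.38 at P21. It fell by 3.59 ± 0.30 (SE, adjusted p = 0.000718). Nnat, a proteolipid of developing neurons, read 10.81, 11.23, 11.55 and 11.14 at P8 and 8.36, 8.50, 8.60, 8.97 and 8.64 at P21. It fell by 2.57 ± 0.20 (SE, adjusted p = 0.000718). Dcx, the microtubule-binding protein of migrating neurons, fell by 1.90 ± 0.26 (SE, adjusted p = 0.0036), the tubulin-binding Stmn1 by 0.86 (adjusted p = 0.0128) and the chromatin protein Hmgb3 by 1.59 ± 0.25 (SE, adjusted p = 0.00595). The single called member that rose was Cd24, given above. In the contrast with P8 replicates 5 to 9 the signs of Nnat (1.30), Dcx (0.69), Stmn1 (0.33) and Hmgb3 (1.29) turned, and those of Gap43, Dpysl5, Tubb2b, Sox4, Marcks and Fabp7 did not. Stmn1 lost its call with the oligodendrocyte covariate (adjusted p = 0.106) and with the GAPDH covariate (adjusted p = 0.0515).

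Called genes of axon guidance and synaptic adhesion mostly fell. Of the guidance genes 1 of 45 tested members was higher and 8 lower (2.22% and 17.8%), with a median difference of -0.47, and of the adhesion genes 0 of 37 tested members were higher and 6 lower (0% and 16.2%), with a median difference of -0.26 and 2 higher at an unadjusted limma p under 0.05. Dropping any 1 array left between 3 and 9 (over 1.5 times from 8 without P8 replicates 1, 2 and 3 and P21 replicates 1, 2 and 3) lower guidance genes and between 3 and 8 (over 1.5 times from 6 without P8 replicates 1 and 2 and P21 replicate 3) lower adhesion genes. Efnb3, a transmembrane ephrin ligand that stops axons at the midline, read 7.52, 8.53, 8.20 and 7.27 at P8 and 2.54, 5.09, 5.30, 4.80 and 4.08 at P21. It fell by 3.52 ± 0.54 (SE, adjusted p = 0.00539). The Eph receptors Epha5 and Ephb3 fell by 2.05 (adjusted p = 0.0235) and 2.72 (adjusted p = 0.0434), the semaphorin receptor Plxna1 by 1.09 ± 0.21 (SE, adjusted p = 0.0125), against -0.10 on its other probe set, and the Slit receptor Robo2 by 1.66 (adjusted p = 0.0287), against 0.049. Slit3, a midline repellent, was dim and rose by 2.11 ± 0.33 (SE, adjusted p = 0.00554). Fits on 8 arrays lost Epha5 without P8 replicates 1 and 3 and P21 replicates 2 and 3 (up to adjusted p = 0.0575 without P8 replicate 1), Ephb3 without any 1 array other than P21 replicate 4 (up to adjusted p = 0.102 without P8 replicate 2) and Robo2 without P8 replicates 2 and 3 and P21 replicates 1, 3 and 4 (up to adjusted p = 0.077 without P8 replicate 2), all 3 named after their values were seen. Against P8 replicates 5 to 9 the signs of Slit3 (-0.039) and Robo2 (0.31) turned. Higher adhesion genes numbered 0 to 1 with 1 array left out (above 0 without P8 replicate 2). Epha5, Ephb3, Plxna1 and Robo2 lost their calls with the oligodendrocyte covariate (up to adjusted p = 0.216 for Epha5) and with the GAPDH covariate (up to adjusted p = 0.0936 for Robo2).

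Cdh11, a cadherin, read 6.57, 7.98, 8.30 and 6.99 at P8 and 5.21, 4.98, 5.34, 6.08 and 5.34 at P21. It fell by 2.07 ± 0.37 (SE, adjusted p = 0.00975). The other probe sets moved by -0.57 and -3.00. Nlgn1, the neuroligin of excitatory synapses, fell by 1.63 ± 0.33 (SE, adjusted p = 0.0154). The other probe set moved by -1.31. With Cbln2, these are genes whose products bridge the synaptic cleft or the contact between cells. With P8 replicates 5 to 9 as the juvenile group, the sign of Nlgn1 turned (0.53). Nlgn1 lost its call with the GAPDH covariate (adjusted p = 0.0645).

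Of the genes of perineuronal nets and extracellular matrix 4 of 32 tested members were higher and 0 lower (12.5% and 0%), with a median difference of -0.076 and 6 lower at an unadjusted limma p under 0.05. The 9 fits on 8 arrays held between 2 and 4 (over 1.5 times from 4 without P8 replicates 1, 2 and 3 and P21 replicates 1, 3, 4 and 5) higher. Hapln4, the link protein Bral2 of nets around auditory neurons, read 8.88, 6.94, 7.26 and 9.88 at P8 and 10.28, 10.33, 10.61, 10.03 and 9.90 at P21. It rose by 1.99 ± 0.54 (SE, adjusted p = 0.0469). P8 replicate 4 was close to the lowest P21 array, while P8 replicates 2 and 3 lay far below. Acan, or aggrecan, the main net proteoglycan, read 6.29, 5.77, 5.72 and 6.59 at P8 and 7.14, 6.78, 7.59, 6.92 and 7.02 at P21. It rose by 1.00 ± 0.24 (SE, adjusted p = 0.0329). The other probe set moved by 1.58. Lamb2, a laminin chain of basement membranes, rose by 1.29 ± 0.27 (SE, adjusted p = 0.0178), and Phyhip, a brain-expressed phytanoyl-CoA hydroxylase-interacting protein gene, by 1.30 ± 0.25 (SE, adjusted p = 0.0124). Phyhip is counted in the list, but this description is not that of a matrix gene. The 4 higher members thus include a gene outside the theme. Removing 1 array ended the calls of Hapln4 without any 1 array other than P8 replicate 4 (up to adjusted p = 0.106 without P8 replicate 3) and Acan without any 1 array other than P8 replicate 4 and P21 replicate 2 (up to adjusted p = 0.0843 without P8 replicate 2). Lower matrix genes numbered 0 to 2 with 1 array left out (above 0 without P8 replicate 3 and P21 replicate 4). Lamb2 and Phyhip lost their calls with the oligodendrocyte covariate (up to adjusted p = 0.081 for Phyhip), and Hapln4, Acan and Lamb2 with the GAPDH covariate (up to adjusted p = 0.104 for Hapln4).

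The cytoskeleton list was close to balance, as 5 of 43 tested members were higher and 3 lower (11.6% and 6.98%), with a median difference of 0.17. The neurofilament subunits Nefh and Nefm, abundant in thick axons, differed by 0.48 (adjusted p = 0.218) and 0.20 (adjusted p = 0.547), with intervals of -0.024 to 0.98 and -0.23 to 0.63. Sptb, a spectrin, read 6.06, 6.38, 6.33 and 6.25 at P8 and 7.67, 7.16, 7.57, 7.89 and 7.29 at P21. It rose by 1.26 ± 0.19 (SE, adjusted p = 0.00514). Kif5b, a kinesin heavy chain, rose by 1.01 ± 0.15 (SE, adjusted p = 0.00502), against 0.31 on its other probe set. The tubulin Tubb5 fell by 0.69 ± 0.17 (SE, adjusted p = 0.0366) and the intermediate filament Nes, or nestin, of precursor cells by 1.44 ± 0.34 (SE, adjusted p = 0.0287). With 8 arrays the calls ended for Tubb5 without any 1 array other than P8 replicate 4 (up to adjusted p = 0.077 without P8 replicate 2) and Nes without any 1 array other than P8 replicates 1 and 4 and P21 replicate 4 (up to adjusted p = 0.0675 without P21 replicate 3). When P8 replicates 5 to 9 took the place of 1 to 4, the signs of Kif5b (-0.66) and Tubb5 (1.11) turned. Lower cytoskeleton genes numbered 1 to 3 with 1 array left out (over 1.5 times from 3 without any 1 array other than P8 replicates 1 and 4 and P21 replicate 4). Sptb, Tubb5 and Nes lost their calls with the oligodendrocyte covariate (up to adjusted p = 0.128 for Tubb5).

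Activity-regulated genes as a list stayed near the share of all genes. Of these 2 of 42 tested members were higher and 1 lower (4.76% and 2.38%), with a median difference of 0.12. Dusp1, a phosphatase that switches off MAP kinases and is itself induced by activity and stress, read 6.47, 6.32, 5.91 and 6.60 at P8 and 9.22, 9.34, 9.28, 8.31 and 8.54 at P21. It rose by 2.61 ± 0.27 (SE, adjusted p = 0.0014). Atf3, a transcription factor of injury and stress responses, read 0.38, 2.29, 0.49 and 2.87 at P8 and 5.93, 5.38, 5.78, 5.96 and 4.64 at P21. It rose by 4.03 ± 0.54 (SE, adjusted p = 0.00339) from a P8 group near the floor, while P3 had been at 5.23 ± 2.05 (SD, n = 6). Fos, the classical immediate-early gene, had separated groups and a difference of 1.43 ± 0.42 (SE, adjusted p = 0.0624) that missed the threshold, and Egr1 differed by 0.45 (adjusted p = 0.478). Sik1, a kinase induced through CREB, fell by 0.86 ± 0.22 (SE, adjusted p = 0.0357), against 0.69 on its other probe set. Its call was lost without any 1 array other than P8 replicate 4 and P21 replicate 1 (up to adjusted p = 0.0855 without P8 replicate 2), and its sign turned against P8 replicates 5 to 9 (0.40). All animals had been injected with tracer 24 hours earlier, and the part of that injury in these levels was not tested. Higher activity genes numbered 2 to 4 with 1 array left out (over 1.5 times from 2 without P8 replicates 1 and 4) and lower activity genes 0 to 2 (over 1.5 times from 1 without any 1 array other than P21 replicates 1 and 5). Sik1 lost its call with the oligodendrocyte covariate (adjusted p = 0.197) and with the GAPDH covariate (adjusted p = 0.098).

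The cAMP response element, to which CREB binds, was searched in RefSeq promoters of the rat assembly GRCr8, from 250 bases before to 50 after the start of each gene, as the letters TGACGTCA, which read the same on both strands. These letters stood in 1.83% of 33469 promoters. They stood in 3.17% of the 8891 tested genes with a promoter, in 3.19% of 470 higher genes, in 1.16% of 432 lower genes and in 5 of 30 genes of the activity list (16.67%). Of these 5 genes Dusp1 alone was called. Its promoter is printed whole, and for the others the element with 20 bases on each side, all 5′ to 3′ along the gene with the element in capitals, to show the sequence around letters that the search itself fixed.
Dusp1 (chr10:17184603-17184902, plus strand): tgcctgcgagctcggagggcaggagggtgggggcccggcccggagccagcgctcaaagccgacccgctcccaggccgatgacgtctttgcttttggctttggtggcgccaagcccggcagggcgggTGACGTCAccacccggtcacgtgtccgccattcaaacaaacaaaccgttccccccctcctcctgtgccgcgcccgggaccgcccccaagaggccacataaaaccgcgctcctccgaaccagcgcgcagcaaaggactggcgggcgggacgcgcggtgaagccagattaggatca
Ier2 (chr19:40399287-40399334, plus strand): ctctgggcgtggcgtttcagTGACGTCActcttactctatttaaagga
Jund (chr16:18769965-18770012, minus strand): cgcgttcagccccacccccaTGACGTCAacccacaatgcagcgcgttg
Plk2 (chr2:43702450-43702497, plus strand): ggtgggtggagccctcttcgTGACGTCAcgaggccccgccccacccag
Ppp1r15a (chr1:105139635-105139682, minus strand): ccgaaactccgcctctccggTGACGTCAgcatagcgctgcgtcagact

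The element began 124 bases before the start of Dusp1, 66 bases before that of Ier2, Plk2 and Ppp1r15a, and 221 bases before that of Jund. The levels of the latter 4 genes, chosen because their promoters hold the letters, differed by 0.18 (adjusted p = 0.768) for Ier2, 0.11 (adjusted p = 0.823) for Jund, -1.98 (adjusted p = 0.0639) for Plk2 and -0.27 (adjusted p = 0.765) for Ppp1r15a. The same letters thus stood before a gene that rose and before genes with no called change, and they describe the sequence only.

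Nuclear receptors and genes of thyroid and retinoid signalling moved in both directions. In this list 6 of 27 tested members were higher and 3 lower (22.2% and 11.1%), with a median difference of 0.38. Leaving out 1 array gave between 2 and 5 (over 1.5 times from 6 without P8 replicates 2 and 3 and P21 replicates 3, 4 and 5) higher. The median was -0.29 against P8 replicates 5 to 9. Esrra, an orphan receptor that drives mitochondrial genes, read 5.85, 4.92, 4.60 and 6.57 at P8 and 7.92, 7.57, 7.71, 7.39 and 7.67 at P21. It rose by 2.17 ± 0.37 (SE, adjusted p = 0.0075). Nr3c2, the mineralocorticoid receptor, read 6.62, 6.23, 6.45 and 6.52 at P8 and 8.43, 8.17, 8.41, 8.32 and 7.71 at P21. It rose by 1.76 ± 0.20 (SE, adjusted p = 0.00152), and the glucocorticoid receptor Nr3c1, named after its value was seen, rose by 1.41 (adjusted p = 0.0239). With Crabp1, its paralogue Crabp2 fell, by 2.05 ± 0.54 (SE, adjusted p = 0.0434). Calls were lost for Nr3c1 without P8 replicates 2 and 3 and P21 replicates 4 and 5 (up to adjusted p = 0.0658 without P8 replicate 2) and Crabp2 without any 1 array other than P8 replicate 1 (up to adjusted p = 0.107 without P8 replicate 2). Lower nuclear receptor genes numbered 1 to 2 with 1 array left out (over 1.5 times from 3 without P8 replicates 2 and 3 and P21 replicates 2 and 3). Nr3c1 and Crabp2 lost their calls with the oligodendrocyte covariate (up to adjusted p = 0.174 for Crabp2), and Crabp2 with the GAPDH covariate (adjusted p = 0.186).

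Called transcription factors of hindbrain and neuronal identity mostly fell. Of this list 1 of 50 tested members was higher and 6 lower (2% and 12%), with a median difference of -0.15. Over all genes 5.26% were higher and 5.12% lower. Pbx3, a homeodomain cofactor of Hox proteins, read 9.80, 10.44, 10.64 and 10.02 at P8 and 8.96, 8.87, 8.87, 8.80 and 8.39 at P21. It fell by 1.45 ± 0.22 (SE, adjusted p = 0.00502), with the opposite sign against P8 replicates 5 to 9 (0.45). Its partner Meis1 fell by 0.97 ± 0.18 (SE, adjusted p = 0.0107). The LIM homeodomain gene Lhx9 fell by 3.00 (adjusted p = 0.0371) and Sox2, a gene of precursors and glia, by 1.39 (adjusted p = 0.0294), both named after their values were seen. Onecut2, the single higher member, rose by 0.96 ± 0.25 (SE, adjusted p = 0.0439), and against P8 replicates 5 to 9 its sign turned (-1.63). Fits on 8 arrays lost Lhx9 without any 1 array other than P8 replicates 1 and 4 (up to adjusted p = 0.0827 without P8 replicate 3), Sox2 without P8 replicates 1, 3 and 4 and P21 replicates 1 and 3 (up to adjusted p = 0.0695 without P8 replicate 3) and Onecut2 without any 1 array other than P21 replicate 2 (up to adjusted p = 0.0945 without P8 replicate 1). Higher transcription factor genes numbered 0 to 1 with 1 array left out (over 1.5 times from 1 without any 1 array other than P8 replicate 4 and P21 replicate 2). Meis1, Sox2 and Onecut2 lost their calls with the oligodendrocyte covariate (up to adjusted p = 0.167 for Onecut2), and Meis1, Lhx9, Sox2 and Onecut2 with the GAPDH covariate (up to adjusted p = 0.0936 for Onecut2).

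Of the chromatin genes 1 of 35 tested members was higher and 3 lower (2.86% and 8.57%), with a median difference of -0.22. Ezh1, a Polycomb methyltransferase more abundant in non-dividing tissue, read 7.70, 8.12, 7.72 and 7.50 at P8 and 9.49, 9.04, 9.09, 9.05 and 9.20 at P21. It rose by 1.41 ± 0.18 (SE, adjusted p = 0.00297), with 0.41 on its other probe set. Hmgn1, a nucleosome-binding protein, fell by 1.22 ± 0.25 (SE, adjusted p = 0.016). Of the cell cycle genes 3 of 44 tested members were higher and 6 lower (6.82% and 13.6%), with a median difference of -0.45. With 1 array left out there were between 2 and 4 (over 1.5 times from 6 without P8 replicates 1 and 2 and P21 replicates 1, 2, 3 and 4) lower. Ccnb2, a mitotic cyclin, fell by 1.67 ± 0.33 (SE, adjusted p = 0.0138), and the mitotic kinase Cdk1, named after its value was seen, by 1.22 (adjusted p = 0.0324), a call lost without P8 replicates 1, 2 and 3 and P21 replicates 3 and 5 (up to adjusted p = 0.074 without P8 replicate 1). The cell cycle inhibitor Cdkn1b went the other way and read 7.93, 7.30, 6.37 and 6.94 at P8 and 8.81, 9.27, 9.41, 8.58 and 9.03 at P21. It rose by 1.89 ± 0.31 (SE, adjusted p = 0.00689), and cyclin D1, Ccnd1, rose by 2.33 ± 0.42 (SE, adjusted p = 0.00936) (other probe sets 3.17 and 3.58). Hmgn1, Ccnb2, Cdk1 and Cdkn1b lost their calls with the oligodendrocyte covariate (up to adjusted p = 0.283 for Cdk1), and Ccnb2 and Cdk1 with the GAPDH covariate (up to adjusted p = 0.128 for Cdk1).

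Ribosomal protein genes had differences of 1 sign, and part of them fell. Of these 0 of 39 tested members were higher and 10 lower (0% and 25.6%), with a median difference of -0.44 and 0 higher at an unadjusted limma p under 0.05, and none of the 39 had a difference above 0. Fits on 8 arrays gave between 2 and 6 (over 1.5 times from 10 without P8 replicates 1, 2, 3 and 4 and P21 replicates 1, 2, 3, 4 and 5) lower, so that the count depended on single arrays. The median stayed below 0 in each of these fits, but was 0.62 against P8 replicates 5 to 9. Rplp0, a stalk protein of the large subunit, read 8.55, 8.51, 8.14 and 8.60 at P8 and 6.92, 7.09, 7.21, 7.44 and 7.73 at P21. It fell by 1.17 ± 0.21 (SE, adjusted p = 0.00892), and Rpsa, of the small subunit, by 0.95 ± 0.19 (SE, adjusted p = 0.0156) (other probe sets -0.51 and -0.85). In the contrast with P8 replicates 5 to 9 the signs of both turned (3.24 and 0.62). Of the translation and splicing factors 2 of 46 tested members were higher and 1 lower (4.35% and 2.17%), with a median difference of -0.18, and Mbnl1, a splicing factor that switches exons from fetal to adult forms, read 9.63, 8.77, 9.63 and 9.71 at P8 and 10.81, 10.69, 10.75, 10.50 and 10.19 at P21. It rose by 1.15 ± 0.24 (SE, adjusted p = 0.0173) (other probe sets 2.42). Higher translation and splicing genes numbered 1 to 2 with 1 array left out (over 1.5 times from 2 without any 1 array other than P8 replicate 4) and lower translation and splicing genes 0 to 1 (over 1.5 times from 1 without any 1 array other than P8 replicate 4 and P21 replicate 5). Rplp0 and Rpsa lost their calls with the oligodendrocyte covariate (up to adjusted p = 0.159 for Rpsa), and Rplp0, Rpsa and Mbnl1 with the GAPDH covariate (up to adjusted p = 0.0855 for Mbnl1).

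Few genes of energy metabolism passed the adjusted threshold. Of the oxidative phosphorylation genes 4 of 72 tested members were higher and 0 lower (5.56% and 0%). Their median difference was 0.21, against 0.048 over all genes, and 60 of the 72 had a difference above 0. At an unadjusted limma p under 0.05, 21 were higher and 0 lower. The ages were fully separated with P21 higher in 15 of the 72 and with P21 lower in 0, against 8.30% and 7.74% of all genes. Ndufs7 and Ndufs4, subunits of complex I, rose by 0.83 ± 0.19 (SE, adjusted p = 0.0261) and 0.85 ± 0.20 (SE, adjusted p = 0.0299), beside the rise of Cox8b. Of the genes of glycolysis and the citric acid cycle 4 of 58 tested members were higher and 2 lower (6.90% and 3.45%), with a median difference of 0.14. Ckmt1, the mitochondrial creatine kinase, read 9.52, 9.01, 9.33 and 9.52 at P8 and 10.59, 10.58, 10.50, 10.81 and 10.25 at P21. It rose by 1.20 ± 0.18 (SE, adjusted p = 0.00523), and Pdk2, a kinase that restrains pyruvate dehydrogenase, rose by 1.28 ± 0.25 (SE, adjusted p = 0.0135). Ldha, the lactate dehydrogenase subunit that favours lactate formation, fell by 1.32 ± 0.24 (SE, adjusted p = 0.00975), with the opposite sign against P8 replicates 5 to 9 (0.72). Removing 1 array ended the calls of Ndufs7 without P8 replicates 2 and 3 and P21 replicates 1, 2 and 3 (up to adjusted p = 0.0689 without P8 replicate 2) and Ndufs4 without any 1 array other than P8 replicate 4 and P21 replicate 5 (up to adjusted p = 0.073 without P8 replicate 2). Higher oxidative phosphorylation genes numbered 1 to 4 with 1 array left out (over 1.5 times from 4 without any 1 array other than P8 replicates 1 and 4 and P21 replicate 5), higher glycolysis genes 2 to 3 (over 1.5 times from 4 without any 1 array other than P21 replicate 1) and lower glycolysis genes 1 to 2 (over 1.5 times from 2 without any 1 array other than P8 replicate 3 and P21 replicates 1 and 2). Ndufs4 and Ldha lost their calls with the oligodendrocyte covariate (up to adjusted p = 0.0696 for Ldha), and Ndufs7 and Ndufs4 with the GAPDH covariate (up to adjusted p = 0.108 for Ndufs4).

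Genes of cholesterol and lipid synthesis passed in the higher direction alone. Of these 7 of 38 tested members were higher and 0 lower (18.4% and 0%), with a median difference of 0.15 and 3 lower at an unadjusted limma p under 0.05. Dropping any 1 array left between 4 and 6 (over 1.5 times from 7 without P8 replicates 1 and 3 and P21 replicates 2 and 3) higher. Stard4, a carrier of cholesterol between membranes, read 6.92, 6.49, 6.09 and 6.88 at P8 and 9.12, 8.61, 8.78, 8.35 and 9.06 at P21. It rose by 2.19 ± 0.24 (SE, adjusted p = 0.00146) (other probe sets 1.22 and 1.32). Elovl5, which lengthens polyunsaturated fatty acids, rose by 2.01 ± 0.37 (SE, adjusted p = 0.0106), against 0.73 on its dimmer probe set. Insig1, which holds the sterol sensor in the endoplasmic reticulum, rose by 1.10 ± 0.20 (SE, adjusted p = 0.0103). The remaining 4 are named as the rest of a short count: the squalene synthase Fdft1 rose by 1.08 (adjusted p = 0.0121), the sterol-responsive transcription factor Srebf2 by 0.82 (adjusted p = 0.0318), and the enzymes Mvd and Sc5d by 0.69 (adjusted p = 0.0427) and 0.76 (adjusted p = 0.0487). Other probe sets moved by 0.38 for Fdft1 and by 0.72 and 0.19 for Sc5d. With 8 arrays the calls ended for Srebf2 without any 1 array other than P8 replicate 4 and P21 replicates 1 and 4 (up to adjusted p = 0.0777 without P21 replicate 3), Mvd without any 1 array other than P8 replicate 4 and P21 replicate 5 (up to adjusted p = 0.0932 without P21 replicate 3) and Sc5d without any 1 array other than P8 replicate 2 and P21 replicate 5 (up to adjusted p = 0.108 without P8 replicate 1). Against P8 replicates 5 to 9 the sign of Srebf2 turned (-0.088). Myelinating cells also make sterols, and their part in these rises was not tested. With the mean of the tested oligodendrocyte and myelin markers as a covariate Stard4 and Elovl5, but not the other 5, kept their calls. Over all genes 373 of the 1198 calls were kept in that fit. Insig1, Fdft1, Srebf2, Mvd and Sc5d lost their calls with the oligodendrocyte covariate (up to adjusted p = 0.365 for Sc5d), and Fdft1, Srebf2, Mvd and Sc5d with the GAPDH covariate (up to adjusted p = 0.151 for Sc5d).

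Of the genes of protein folding and the proteasome 3 of 48 tested members were higher and 0 lower (6.25% and 0%), with a median difference of 0.049 and 3 lower at an unadjusted limma p under 0.05, and Bag3, a co-chaperone of selective autophagy, read 5.95, 6.37, 5.56 and 7.36 at P8 and 8.21, 8.97, 9.21, 8.55 and 9.02 at P21. It rose by 2.48 ± 0.36 (SE, adjusted p = 0.00417). Of the genes of antioxidant defence and metal binding 2 of 32 tested members were higher and 2 lower (6.25% and 6.25%), with a median difference of 0.16, with Gstm1, a glutathione transferase, falling by 1.44 ± 0.21 (SE, adjusted p = 0.00422) and turning in sign against P8 replicates 5 to 9 (0.95). Of the genes of antigen presentation, complement and interferon response 0 of 30 tested members were higher and 0 lower (0% and 0%), with a median difference of 0.18 and 5 higher and 2 lower at an unadjusted limma p under 0.05. Of the neuropeptides, growth factors and their receptors 1 of 52 tested members was higher and 5 lower (1.92% and 9.62%), with a median difference of -0.22. Igf1, the insulin-like growth factor, read 7.38, 6.48, 7.06 and 8.27 at P8 and 5.20, 4.34, 5.45, 3.57 and 4.80 at P21. It fell by 2.62 ± 0.44 (SE, adjusted p = 0.00725) (other probe sets -3.49). Pnoc, the precursor of nociceptin, fell by 2.10 ± 0.41 (SE, adjusted p = 0.0138). The peptide genes Penk and Crh, named after their values were seen, fell by 1.83 (adjusted p = 0.0366) and 3.54 (adjusted p = 0.0393). Calls were lost for Penk without any 1 array other than P8 replicate 4 (up to adjusted p = 0.0843 without P21 replicate 3) and Crh without any 1 array other than P8 replicate 4 and P21 replicate 5 (up to adjusted p = 0.099 without P8 replicate 2). Higher protein folding genes numbered 1 to 3 with 1 array left out (over 1.5 times from 3 without P8 replicate 1 and P21 replicates 2 and 3), higher antioxidant genes 0 to 4 (over 1.5 times from 2 without any 1 array other than P8 replicate 1 and P21 replicate 2), lower antioxidant genes 1 to 2 (over 1.5 times from 2 without P21 replicate 3), higher interferon genes 0 to 1 (above 0 without P8 replicates 1 and 4), higher neuropeptide genes 1 to 2 (over 1.5 times from 1 without P8 replicate 3) and lower neuropeptide genes 2 to 5 (over 1.5 times from 5 without any 1 array other than P8 replicate 4 and P21 replicate 4). Igf1, Pnoc and Crh lost their calls with the oligodendrocyte covariate (up to adjusted p = 0.118 for Crh), and Pnoc, Penk and Crh with the GAPDH covariate (up to adjusted p = 0.149 for Crh).

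Markers of other cell types were detected at both ages. Of the oligodendrocyte and myelin markers 4 of 25 tested members were higher and 0 lower (16% and 0%), with a median difference of 0.38 and 1 lower at an unadjusted limma p under 0.05. The mean over the list was between 6.76 and 7.55 on the P8 arrays and between 7.25 and 8.03 on the P21 arrays, and these ranges overlap. Mbp, the myelin basic protein, was 11.02 ± 0.29 at P8 (SD, n = 4) and 11.27 ± 0.28 at P21 (SD, n = 5) and differed by 0.25 (adjusted p = 0.487) with an interval of -0.22 to 0.72. Ermn, a cytoskeletal protein of late oligodendrocytes, read 5.19, 6.64, 6.15 and 4.63 at P8 and 7.43, 9.02, 8.18, 8.68 and 9.22 at P21. It rose by 2.86 ± 0.47 (SE, adjusted p = 0.00697), and Gpr37 and Apod rose by 1.46 ± 0.29 (SE, adjusted p = 0.0152) and 2.28 ± 0.44 (SE, adjusted p = 0.0132). Mal, a proteolipid of compact myelin, rose by 1.98 (adjusted p = 0.0227) and was named after its value was seen, with a call lost without P8 replicate 1 and P21 replicate 5 (up to adjusted p = 0.0572 without P8 replicate 1). Of the markers of oligodendrocyte precursors 0 of 7 tested members were higher and 1 lower (0% and 14.3%), with a median difference of -0.86 and 1 higher at an unadjusted limma p under 0.05. Lhfpl3 fell by 0.86 ± 0.19 (SE, adjusted p = 0.0208), a call lost without P8 replicate 2 and P21 replicates 2 and 3 (up to adjusted p = 0.0559 without P8 replicate 2), and Pdgfra differed by -1.47 (adjusted p = 0.0724). Higher myelin genes numbered 3 to 7 with 1 array left out (over 1.5 times from 4 without P8 replicate 2), lower myelin genes 0 to 1 (above 0 without P21 replicate 2) and lower precursor genes 0 to 2 (over 1.5 times from 1 without P8 replicate 2 and P21 replicates 2, 3 and 4). Lhfpl3 lost its call with the oligodendrocyte covariate (adjusted p = 0.0815), and Gpr37, Apod, Mal and Lhfpl3 with the GAPDH covariate (up to adjusted p = 0.116 for Mal). The 4 called myelin markers are part of the oligodendrocyte covariate, so that fit cannot test them. In it the limma adjusted p was 0.081 for Ermn, 0.13 for Gpr37 and 0.141 for Apod.

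Of the astrocyte markers 4 of 14 tested members were higher and 1 lower (28.6% and 7.14%), with a median difference of -0.14. Gfap, the astrocyte intermediate filament, read 8.00, 8.41, 8.47 and 9.10 at P8 and 9.93, 10.05, 9.92, 10.13 and 9.97 at P21. It rose by 1.51 ± 0.22 (SE, adjusted p = 0.00424), and the connexin Gjb6 read 5.35, 5.17, 5.33 and 5.80 at P8 and 8.21, 8.12, 7.76, 8.03 and 7.55 at P21. It rose by 2.52 ± 0.20 (SE, adjusted p = 0.000718). The glutamate transporter Slc1a3 fell by 0.96 ± 0.25 (SE, adjusted p = 0.0389), with -1.51 and 0.17 on its other probe sets, and its call was lost without any 1 array other than P21 replicate 4 (up to adjusted p = 0.0918 without P8 replicate 2). Of 9 microglial markers 1 passed, the protease gene Ctss, which rose by 1.87 ± 0.33 (SE, adjusted p = 0.00866), and of 13 vascular markers 1 passed, the organic anion transporter Slco1a4, which rose by 1.46 ± 0.24 (SE, adjusted p = 0.00637). No marker passed in limma among 9 of fibroblasts and meninges, 7 of choroid plexus and ependyma, 5 of Schwann cells, 5 of inhibitory neurons and 4 of erythrocytes, where 3, 0, 1, 1 and 2 had an unadjusted p under 0.05. The mean of the inhibitory neuron markers ranged from 7.26 to 7.94 on the P8 arrays and from 6.19 to 7.58 on the P21 arrays, with a median difference of -0.51. Sst, the peptide somatostatin, read 10.66, 8.22, 8.87 and 9.80 at P8 and 8.65, 6.63, 6.12, 9.27 and 7.02 at P21 and differed by -1.85 (adjusted p = 0.136). Lower astrocyte genes numbered 0 to 1 with 1 array left out (over 1.5 times from 1 without any 1 array other than P21 replicate 4). Slc1a3 and Slco1a4 lost their calls with the oligodendrocyte covariate (up to adjusted p = 0.0778 for Slc1a3), and Slc1a3 with the GAPDH covariate (adjusted p = 0.0979).

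**Figure D5:**
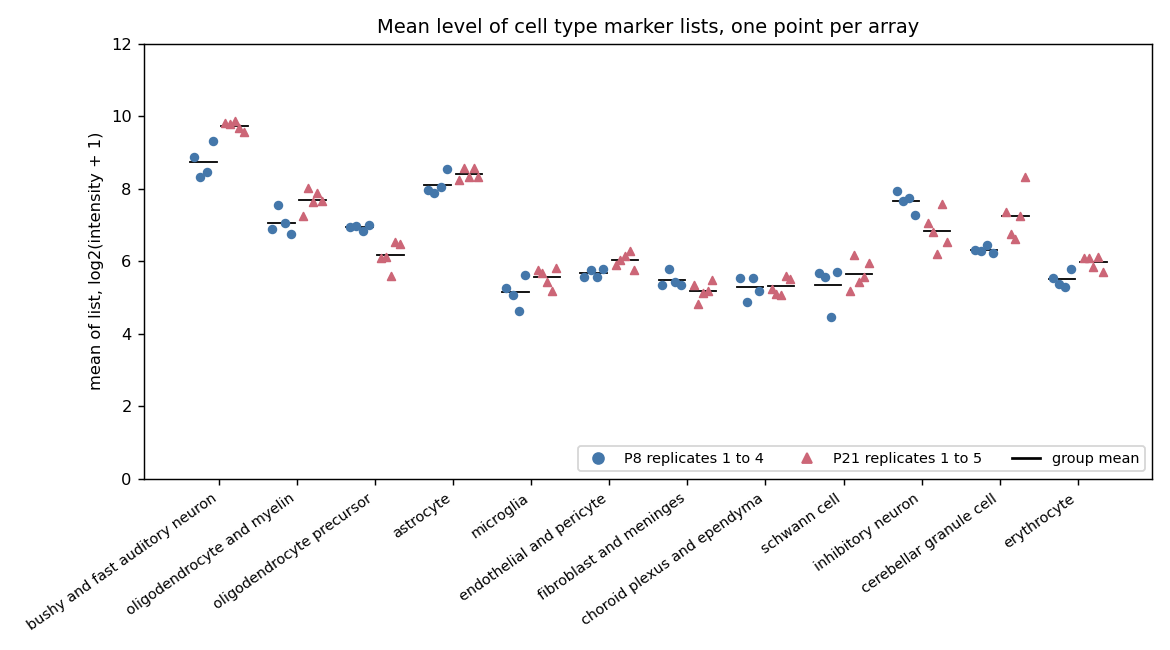
Mean log2(intensity + 1) over the tested members of 12 cell type marker lists, 1 point per array, with circles for the 4 P8 arrays, triangles for the 5 P21 arrays and lines for group means. The bushy and fast auditory neuron list is higher on every P21 array (9.56 to 9.88) than on every P8 array (8.32 to 9.31), oligodendrocyte precursor markers are lower on every P21 array, and oligodendrocyte and myelin markers overlap between the ages.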

How the data were processed

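Biotin-labelled amplified RNA of laser-dissected globular bushy cells was measured on 20 one-colour arrays, 1 per animal, of which 9 were compared. The authors deposited 1 linear intensity per probe set and array. GCRMA, which yields log2 values, is listed in the submitters' processing notes without version or role, and what software made the linear values is not given in the sources used. The mean intensity without the lowest and highest 2% of probe sets was 100 on every array, so no further normalization was added. Array scaling of this kind fixes the average, so levels are relative to it.

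Intensities were analysed as log2(intensity + 1). Probe sets with 1 gene in the platform annotation (20832, with 436 of several genes and 9831 unnamed left out, like 57 controls) were kept where above log2 4 in at least 4 of the 9 arrays. Symbols were updated through a RefSeq table of GRCr8, 20764 by Entrez identifier and 2 by accession, and 66 were kept as annotated. A gene was read from its probe set with the highest mean. Differences and adjusted p were computed with R 4.3.3 and limma 3.58.1, by lmFit and eBayes on the 9 arrays, with Benjamini-Hochberg adjustment over 15111 probe sets and calls under 0.05. Confidence intervals are 95% limma intervals. The fit was tested on simulated data, where it called 0, 16, 40 and 43 of 50 probe sets changed 1.5, 2, 4 and 8-fold and 7 unchanged ones. The p-values measure the spread between these animals, whose litters are not named in the labels.

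The members, the 42 gene lists (1570 entries, 1218 of them tested) and the rule for named genes were chosen with earlier results of these data known. The rule took the 10 largest rises and 10 largest falls among called genes with separated groups and a higher mean of at least log2 6. It added up to 3 genes of smallest p from each list, called members against their list's majority, and 42 genes of interest, 38 of them tested. The others are not reported here. Names come from the 180 genes so chosen, and 34 further genes were chosen after their values were seen. Alternatives were other filters, pseudocount, normalization, variance models, array weights, tests, covariates, array sets, a replicate block and each array left out.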

Additional observations from a re-analysis of the deposited data

Results flagged for a closer look

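Single arrays far from the others of their age were looked for in each gene named in the report by Dixon's test, which picks about 1 in 20 groups by chance. It picked 21 of 348 groups. Ctss read 7.56 in P8 replicate 4 against 6.12 to 6.29 on the other P8 arrays, and Mbnl1 read 8.77 in P8 replicate 2 against 9.63 to 9.71 on the other P8 arrays. Ncald read 9.39 in P8 replicate 4 against 9.82 to 9.85 on the other P8 arrays, and Pex5l read 3.14 in P8 replicate 1 against 1.14 to 1.38 on the other P8 arrays. Phyhip read 5.00 in P8 replicate 1 against 5.80 to 5.94 on the other P8 arrays, and Plxna1 read 6.71 in P8 replicate 4 against 6.25 to 6.30 on the other P8 arrays. Snap25 read 11.72 in P8 replicate 3 against 11.38 to 11.43 on the other P8 arrays, and Stmn1 read 11.03 in P8 replicate 3 against 10.53 to 10.60 on the other P8 arrays. Cacnb2 read 7.51 in P21 replicate 1 against 8.02 to 8.10 on the other P21 arrays, and Ctss read 7.74 in P21 replicate 4 against 8.53 to 8.72 on the other P21 arrays. Gabrd read 6.69 in P21 replicate 4 against 7.78 to 8.08 on the other P21 arrays, and Gpr37 read 9.40 in P21 replicate 2 against 8.23 to 8.54 on the other P21 arrays. Lhfpl3 read 8.54 in P21 replicate 5 against 8.00 to 8.12 on the other P21 arrays, and Mbp read 10.77 in P21 replicate 5 against 11.32 to 11.44 on the other P21 arrays. Meis1 read 9.54 in P21 replicate 1 against 8.89 to 9.03 on the other P21 arrays, and Nefh read 10.83 in P21 replicate 5 against 11.46 to 11.67 on the other P21 arrays. Nptxr read 7.29 in P21 replicate 1 against 6.78 to 6.88 on the other P21 arrays, and Pbx3 read 8.39 in P21 replicate 5 against 8.80 to 8.96 on the other P21 arrays. Pex5l read 4.51 in P21 replicate 1 against 5.24 to 5.33 on the other P21 arrays, and Scn4b read 10.91 in P21 replicate 5 against 11.47 to 11.68 on the other P21 arrays. Synpr read 5.24 in P21 replicate 3 against 6.32 to 6.66 on the other P21 arrays. The reasons were not tested.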

How the results depend on the processing

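Higher and lower calls numbered 607 and 591 genes, or 734 and 687 probe sets. They stayed within 1.5 times under quantile normalization, arrays centred on their median, array weights, a pseudocount of 16, a filter at log2 6, limma with trend and robust options and, for genes, the mean over probe sets. Without a filter on low values there were 403 and 443 genes. A fit on 15 arrays called 1095 and 1086 genes (1346 and 1276 probe sets), one on all 20 arrays 1328 and 1030 genes (1520 and 1364 probe sets), and P8 replicates 5 to 9 in place of 1 to 4 gave 3139 and 3041 genes (3578 and 4428 probe sets). The exact Mann-Whitney test called 0 and 0 genes (0 and 0 probe sets), and its smallest adjusted p was 0.110. The limma test against a change of 2-fold called 11 and 13 genes (13 and 14 probe sets). With the oligodendrocyte marker mean as covariate there were 247 and 207 genes (319 and 239 probe sets), and with the GAPDH difference 285 and 273 genes (354 and 323 probe sets). Leaving out 1 array gave 301 to 634 higher and 315 to 567 lower genes, and 365 to 770 higher and 373 to 660 lower probe sets. The replicate numbers of the 2 ages did not mark shared animals, and same-numbered arrays deviated with correlations of -0.026, 0.015, -0.047 and -0.065. With the number as a block, which drops P21 replicate 5 from the contrast and leaves few degrees of freedom, there were 56 and 91 genes (67 and 115 probe sets). The cause of the other shifts was not tested.

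Of the 144 called genes named in the report, 143 kept their call in the fit on 15 arrays, 84 against P8 replicates 5 to 9, 101 with all 20 arrays, and 103 to 134 with 1 array left out. The counts were 72 with the oligodendrocyte covariate, 83 with the GAPDH covariate, 37 with the replicate block, 15 in the test against 2-fold, 0 in the Mann-Whitney test, 118 without a filter, 133 with the mean over probe sets, 123 of 123 with the filter at log2 6, and 136 to 144 under array weights, centring, quantile normalization, trend and the pseudocount of 16. Against P8 replicates 5 to 9 the sign turned for Atp2b1 (0.31), Atp2b2 (1.95), Cacnb2 (-0.077), Calb1 (1.09), Dcx (0.69), Fgf13 (0.041), Glra2 (0.10), Gria4 (-0.48), Grin2a (-0.32), Gstm1 (0.95), Hcn2 (-0.67), Hmgb3 (1.29), Hpcal1 (0.21), Hpcal4 (1.30), Kif5b (-0.66), Ldha (0.72), Ncald (0.66), Nlgn1 (0.53), Nnat (1.30), Onecut2 (-1.63), Pbx3 (0.45), Plk2 (0.021), Robo2 (0.31), Rplp0 (3.24), Rpsa (0.62), Sik1 (0.40), Slc17a6 (1.28), Slc24a3 (0.23), Slit3 (-0.039), Snap25 (-0.86), Srebf2 (-0.088), Stmn1 (0.33), Syngr3 (1.81), Syt1 (-1.10), Syt2 (-0.61), Tpbg (2.57), Tubb5 (1.11) and Vamp2 (0.91). With all 20 arrays it turned for Atp2b2 (0.86), Hcn2 (-0.28), Hmgb3 (0.0068), Onecut2 (-0.48), Rplp0 (1.28), Slc17a6 (0.63), Snap25 (-0.45), Syngr3 (0.40), Syt1 (-0.54), Syt2 (-0.26) and Tubb5 (0.31). The other reversals were of genes without a call. They were Jund (-0.052), Slc12a5 (-0.11) and Snap25 (-0.091) with the GAPDH covariate, Cacna1a (-0.46) with the oligodendrocyte covariate, Ier2 (-0.056) and Syt1 (-0.0001) with array weights and Ppp1r15a (0.024) with the replicate block. With 1 array left out the differences of uncalled genes that changed sign spanned -0.16 to 0.29 for Cacna1a (turned without P8 replicate 3 and P21 replicate 2), -0.064 to 0.33 for Ier2 (turned without P8 replicate 3 and P21 replicate 4), -0.0020 to 0.31 for Jund (turned without P21 replicate 1), -0.57 to 0.095 for Ppp1r15a (turned without P8 replicate 2 and P21 replicate 5), -0.076 to 0.81 for Scn8a (turned without P8 replicate 2) and -0.28 to 0.45 for Syt2 (turned without P8 replicate 2). The turns against P8 replicates 5 to 9 cannot be assigned to age or to the difference between the array sets. The number of arrays limits precision.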
